A study of Mus musculus with 768 samples.

Results

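Matrix cancer-associated fibroblast (mCAF)-like cells that carried reads of Mmp13 were compared with mCAF-like cells that carried none, within each of 2 mammary tumors. Each well of a 384-well plate held 1 sorted cell, and 1 plate was filled per tumor, which makes the tumor the unit of replication (n = 2 tumors). Tumor and plate cannot be told apart. Of 768 wells, 717 had at least 10000 reads on mouse genes and at least 1000 genes with a read. A cell was taken as mCAF-like where its matrix score M was at least 4 and above its vascular score V. M is the mean log2(RPKM + 1) of Dcn, Lum, Mfap5, Olfml3, Smoc2 and Serpinf1, and V that of Rgs5, Higd1b, Kcnj8, Rgs4, Abcc9 and Gja4, where RPKM is the number of reads scaled to gene length and sequencing depth. This gave 186 mCAF-like cells, 96 in tumor 1 and 90 in tumor 2. Cells with at least 5 Mmp13 reads were called Mmp13-positive and numbered 44 (26 in tumor 1 and 18 in tumor 2). Cells with 0 reads were called Mmp13-negative and numbered 122 (59 and 63). The 20 cells with 1 to 4 reads (11 and 9) were left out of the comparison, which therefore rests on 166 cells.

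Both classes came from the same 2 mice, of the strain FVB/N-Tg(MMTVPyVT)634Mul/J and 14 weeks of age. These mice carry the polyoma middle T oncogene under the mouse mammary tumor virus promoter, which is active in mammary epithelium, and the fibroblasts are host stroma around the resulting carcinomas. All cells had been sorted as negative for EpCAM, CD45, CD31 and NG2, that is, by what they lack, and no untreated or normal tissue stood beside them. The positive and negative classes are therefore defined by the reads alone.

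Matrix metalloproteinase 13 is a secreted collagenase that cuts the triple helix of fibrillar collagens. It is made as an inactive proenzyme, is activated by other proteases such as MMP14, MMP2 and MMP3, is held in check by the tissue inhibitors of metalloproteinases (TIMPs), and is taken up by the receptor LRP1. It is best known from hypertrophic cartilage and bone and from wound and tumor stroma, where transcription is driven by AP-1 and RUNX factors.

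Mmp13 lies on mouse chromosome 9 at chr9:7272514-7283333 on the plus strand (RefSeq, GRCm38.p6). Its promoter is shown because the comparison turns on whether this gene was read out, and the AP-1 and RUNX families are examined among the expressed genes further on. The 250 bases before the RefSeq start, chr9:7272264-7272513, read as follows, with matches to the AP-1 motif TGANTCA and the RUNX motif TGTGGTT, searched on both strands, in capitals.
Mmp13 promoter: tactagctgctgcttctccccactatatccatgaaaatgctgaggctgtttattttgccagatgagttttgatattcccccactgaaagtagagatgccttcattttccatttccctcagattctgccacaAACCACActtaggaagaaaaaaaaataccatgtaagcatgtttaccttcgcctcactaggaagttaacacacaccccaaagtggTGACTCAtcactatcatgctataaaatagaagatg
The AP-1 match TGACTCA lay 35 to 29 bases before the start, and the RUNX match, AACCACA on this strand, 119 to 113 bases before it. Among 27025 mouse promoters of the same length, 6.87% held the AP-1 motif and 4.46% the RUNX motif. A match is a description of the sequence, and no binding was measured.

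Mmp13 ranged widely among the mCAF-like cells. In tumor 1 the positive cells held 18 to 5199 Mmp13 reads with a median of 307, and in tumor 2 they held 6 to 9233 with a median of 245.5. In RPKM the positive cells ranged from 19.4 to 5124 (median 399) in tumor 1 and from 13.1 to 7462 (median 452) in tumor 2. At least 100 RPKM was reached by 19 of 26 and 12 of 18 positive cells, and at least 1000 RPKM by 9 and 8. At least 20 reads were held by 25 of the positive cells of tumor 1 and 13 of those of tumor 2. The lowest positive cells had 18, 28 and 31 reads in tumor 1 and 6, 7 and 9 in tumor 2, and the highest cells left out had 2, 2 and 1 reads and 4, 2 and 2. The cell nearest inside the limit on M had an M of 4.59 in tumor 1 and 4.07 in tumor 2, and the cell nearest outside had 3.95 and 3.54. The single cell with the most reads held 21.1% of the Mmp13 reads of its class in tumor 1 and 33.6% in tumor 2. All these values chose the cells and are given as a description.

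**Figure D1:**
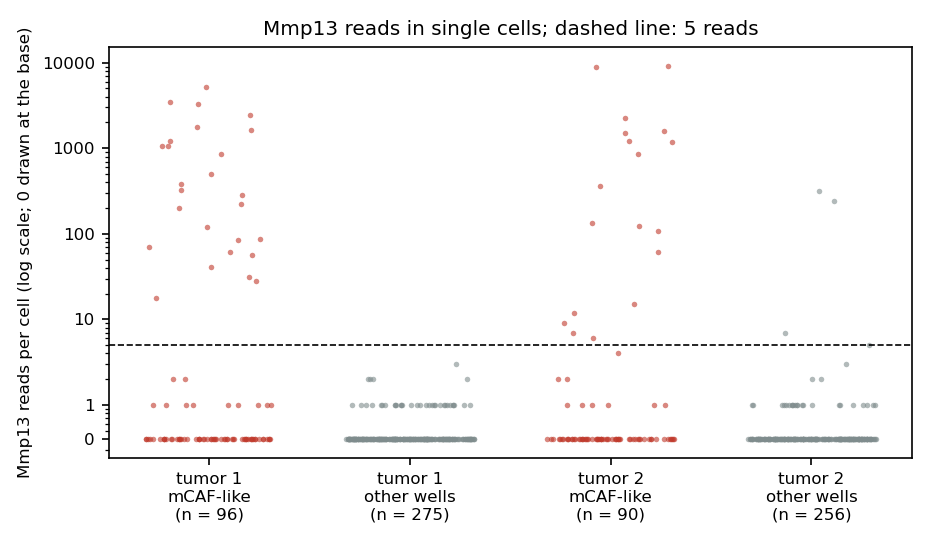
Mmp13 reads per cell (log scale, 0 drawn at the base) in the mCAF-like cells and the other wells that passed the filter, by tumor, with the threshold of 5 reads as a dashed line. Each point is 1 cell. The mCAF-like cells above the line reach 5199 reads in tumor 1 and 9233 in tumor 2, while 0 and 4 of the other wells lie above it.

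The Mmp13-positive share was 27.1% of the mCAF-like cells in tumor 1 (26 of 96, 18.5 to 37.1, exact binomial 95% interval) and 20% in tumor 2 (18 of 90, 12.3 to 29.8), or 23.5% ± 5.01 (SD, n = 2 tumors). The intervals cover counting error only, since Smart-seq2 has no molecular identifiers. Among the other wells that passed the filter, 0 of 275 in tumor 1 (up to 1.33%) and 4 of 256 in tumor 2 (1.56%, 0.427 to 3.95) had at least 5 reads. Between 1 and 4 reads were seen in 11.5% and 10.0% of mCAF-like cells and in 13.1% and 9.77% of the other wells, so at full depth such low counts were about as frequent in wells outside the gate. The median cell had 262024 and 232394 reads on mouse genes in the mCAF-like cells and 202729 and 191482 in the other wells. After every cell was thinned to 42000 reads, at least 5 Mmp13 reads remained in 25.0% (23 of 92) and 15.1% (13 of 86) of the mCAF-like cells and in 0 of 267 and 2 of 246 (0.813%) of the other wells. Between 1 and 4 reads were then seen in 5.43% and 6.98% of the mCAF-like cells and in 3.00% and 3.25% of the other wells.

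The classes differed in more than Mmp13. Positive cells were somewhat deeper, with a median of 313076 reads against 238467 in tumor 1 and 268796 against 226954 in tumor 2, and with a median of 5867.5 genes against 5390 and 5794.5 against 5288. ERCC spike-ins, RNA added in equal amounts to each well, took a median 5.31% of the reads in positive and 7.15% in negative cells of tumor 1, and 5.59% and 6.48% in tumor 2. The matrix score was alike, with a median M of 10.3 against 10.1 and 9.86 against 9.69. The vascular score was not, although its medians were close (0.948 against 1.07 and 0.898 against 1.15). Its highest value was 2.35 and 2.58 in positive cells but 7.87 and 7.88 in negative cells, and a V of at least 2 was seen in 1 of 26 and 1 of 18 positive cells against 12 of 59 and 15 of 63 negative cells. Reads of 21 epithelial markers reached 0.05% of a cell's total in 0 and 1 positive cells and in 4 and 9 negative cells. These values stand beside every gene difference below, and their part in it was not tested except where a value without the cells concerned is given.

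To compare the classes, reads were summed over the cells of a class within a tumor, which gave 4 libraries of 7918288 (positive) and 14250050 (negative) reads in tumor 1 and 4675199 and 13777105 in tumor 2. Levels are given as CPM, the reads of a gene scaled to a common library total, and differences as the log2 fold change of positive over negative with its standard error. edgeR's quasi-likelihood test with the tumor as a block called 0 of 11408 genes at an adjusted p of 0.05 (0% of the genes tested, in either direction), and the lowest adjusted p was 0.359. At an unadjusted p under 0.05 it held 576 genes, 237 higher in positive cells (2.08%) and 339 lower (2.97%). DESeq2 on the same sums called 32 genes higher (0.281%) and 85 lower (0.745%). All 117 had the same sign in each tumor, and 114 of them lay among the 576. Both tools used the same 4 libraries with the tumor as a block, so neither count is independent support. On simulated libraries, DESeq2 called 59 and edgeR 29 of 11221 genes that had no change. Of 50 genes given a log2 change of 1, DESeq2 called 2 and edgeR 1, and of 50 given a change of 2, 33 and 29. At a change of 3 they called 45 and 42 of 50 genes, and at a change of 4, 43 and 42. Some DESeq2 calls may thus be false, and 0 calls by edgeR do not exclude changes near 2-fold. With every cell thinned to 42000 reads before the sum, edgeR called 4 genes higher and 13 lower, and with every cell scaled to the same total 1 higher and 10 lower. A difference of at least 2-fold in each tumor was seen for 174 genes in the higher direction (1.53%) and 519 in the lower (4.55%), so that 25.1% of such genes were higher. Genes entered on their mean RPKM over all cells compared, most of them negative. Of the genes tested, 144 had 0 reads in both positive libraries and 11 in both negative ones. The split of the 2-fold genes depends on the scaling and on the negative cells used. Scaling by ERCC totals instead shifted the median log2 fold change over all tested genes by 0.36, and then 414 were higher and 371 lower (52.7% higher), and with negative cells matched in number and depth to the positive cells 340 and 398 (46.1%). With cells of V under 2 and under 0.05% epithelial reads alone, 240 were higher and 423 lower (36.2%). As no gene passed the edgeR test, the genes below are named as values and not as calls. The shares over all genes tested given here stand beside every count of list members below.

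Of the genes higher in positive cells in both tumors, the 10 of lowest unadjusted p were Ankrd1, Thbs1, Cd53, Col23a1, Ociad2, Trp53inp1, Mbnl3, Plcg2, Tnc and Ccl8, and DESeq2 called all 10. Thrombospondin 1 (Thbs1, chr2:118111876-118127133) is a matricellular glycoprotein that binds collagen, CD36 and latent TGF-beta. It stood at 1179 CPM in positive and 282 CPM in negative cells of tumor 1 and at 2810.1 and 899 CPM in tumor 2, a log2 fold change of 1.85 ± 0.20 (edgeR adjusted p = 0.391). Tenascin C (Tnc), a matrix glycoprotein of wounds and tumor stroma, stood at 1085 against 477 CPM and 1266 against 676 CPM (1.04 ± 0.18, edgeR adjusted p = 0.755). For both genes, each positive library lay above each negative library, as for 15.2% of all genes tested. After thinning, a Tnc read was found in 76.9% of positive and 43.6% of negative cells of tumor 1 and in 88.9% and 59.3% in tumor 2, whereas Thbs1 was found in 96.2% and 65.5% in tumor 1 and in 72.2% and 71.2% in tumor 2.

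The transmembrane collagen Col23a1 stood at 137 CPM in positive and 37.6 CPM in negative cells of tumor 1 and at 83.8 and 19.8 CPM in tumor 2 (log2 fold change 1.97 ± 0.27). The tetraspanin Cd53, known as a leukocyte surface protein, stood at 148 against 27.4 and at 198 against 20.9 CPM (2.84 ± 0.32), with reads in 8 and 4 positive cells and 9 and 6 negative cells. Ptprc, which encodes CD45, had 0 reads in all cells compared. Ociad2 (382 against 167 and 417 against 139 CPM) and the p53-inducible Trp53inp1 (190 against 86.3 and 301 against 122 CPM) were spread over more cells, 25 and 13 and 14 and 11 positive cells respectively. Mbnl3, a splicing regulator, stood at 101 against 6.65 and 20.6 against 3.65 CPM, and Plcg2, a phospholipase C, at 19.9 against 2.69 and 60.2 against 7.17 CPM. Plcg2 was read in 5 and 5 positive cells and in 3 and 5 negative cells. In the positive libraries 1 cell held 46.5% and 48.9% of its reads, and in the negative ones 73.7% and 51.0%. The chemokine Ccl8 stood at 32.8 against 7.36 CPM in tumor 1 and at 127 against 41.7 CPM in tumor 2, so its positive library of tumor 1 lay below the negative library of tumor 2.

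Part of the higher set rested on single cells. Ankrd1 (chr19:36111965-36119844), a target of mechanical and YAP signalling, had 45.1 CPM in positive and 0.637 CPM in negative cells of tumor 1 and 442 against 1.34 CPM in tumor 2, but its reads came from 4 and 3 positive cells. In tumor 1 the top cell held 87.6% of the Ankrd1 reads of positive cells (5.83 CPM without it), and the top cell for Thbs1 held 56.0% (542 CPM without it). A single positive cell of tumor 2, with 9.93% of the reads of its library, held 97.9% of the Ankrd1 reads, 95.1% of the Mmp10 reads, 80.6% of the Thbs1 reads, 45.6% of the Cd53 reads and 32.1% of the Mmp13 reads. Without it, the log2 difference within tumor 2 was 2.74 for Ankrd1 (8.17 with it), 2.50 for Cd53 and 0.94 for Tnc. Also without that cell, Thbs1 in tumor 2 had a log2 difference of -0.57, lower in positive than in negative cells, and the fold change over both tumors fell from 1.85 to 0.75. Col23a1, Mbnl3 and Ccl8 had 0 reads in that cell, but 1 other positive cell of tumor 2 held 57.5% of the Col23a1 reads (37.5 CPM without it), and 1 positive cell of tumor 1 held 40.3% of the Mbnl3 reads (64.5 CPM without it). With matched negative cells the log2 difference of Tnc was 1.89 in tumor 1 and 0.21 in tumor 2.

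**Figure D2:**
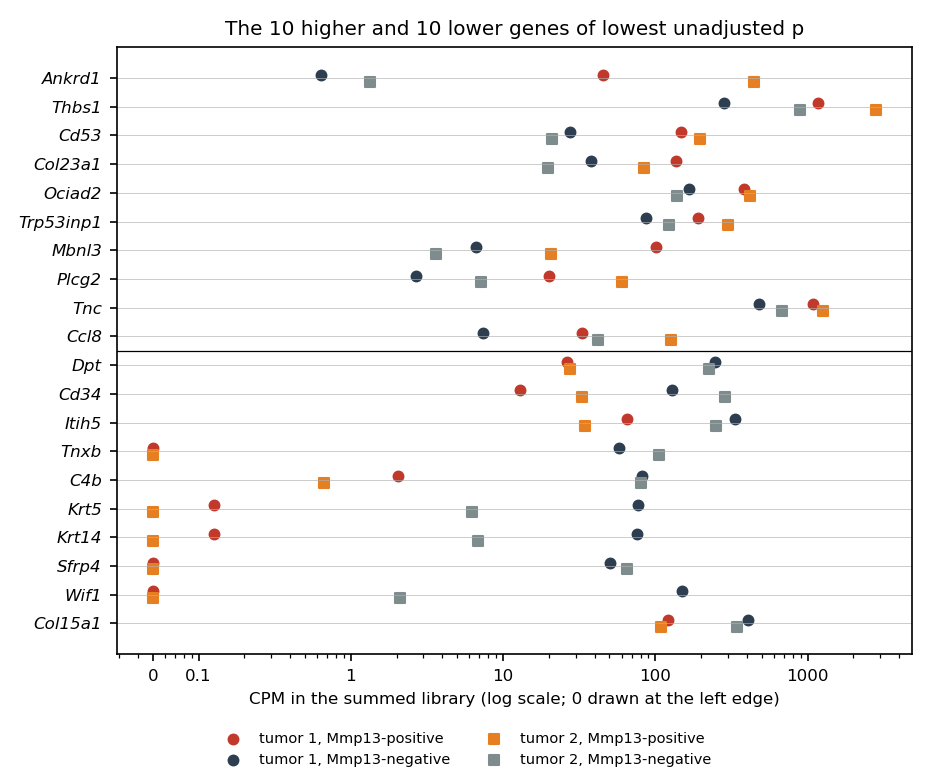
CPM in the 4 summed libraries (log scale, 0 drawn at the left edge) for the 10 genes higher and the 10 lower in Mmp13-positive cells with the lowest unadjusted p. Each point is 1 library of 1 class and tumor. Dpt lies near 26.2 and 27.6 CPM in the positive libraries and at 248 and 225 CPM in the negative ones, while Tnxb, Sfrp4 and Wif1 are at 0 in both positive libraries.

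The 10 lower genes of lowest unadjusted p were Dpt, Cd34, Itih5, Tnxb, C4b, Krt5, Krt14, Sfrp4, Wif1 and Col15a1, of which DESeq2 called 7, all but Tnxb, Sfrp4 and Wif1. Dermatopontin (Dpt, chr1:164796663-164824274), a small matrix protein that binds decorin, stood at 26.2 CPM in positive and 248 CPM in negative cells of tumor 1 and at 27.6 and 225 CPM in tumor 2, a log2 fold change of -3.13 ± 0.23 (edgeR adjusted p = 0.359). Cd34 (chr1:194938821-194961292), a sialomucin of progenitor fibroblasts and endothelium, stood at 13 against 128 and 33.2 against 286 CPM (-3.21 ± 0.24, edgeR adjusted p = 0.359). Dpt was 9.48- and 8.12-fold lower and Cd34 9.90- and 8.63-fold lower in the 2 positive libraries. These sizes depended on the negative cells used. With matched negative cells the log2 difference of Cd34 was -3.55 in tumor 1 and -0.73 in tumor 2, and with cells of V under 2 and under 0.05% epithelial reads that of Dpt was -1.29 in tumor 1 and -2.98 in tumor 2. Itih5, which links hyaluronan in the matrix, stood at 65.4 against 335 and 34.7 against 249 CPM (-2.59 ± 0.24), and Col15a1, a collagen next to basement membranes, at 120 against 409 and 109 against 346 CPM (-1.71 ± 0.19). All 4 differences were smaller when cells with at least 1 Mmp13 read were called positive. The log2 fold change was then -2.15 for Dpt, -1.16 for Cd34, -1.03 for Itih5 and -1.09 for Col15a1.

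Itih5 and Col15a1 were also seen in fewer positive cells. After thinning, Col15a1 was found in 42.3% of positive and 76.4% of negative cells of tumor 1 and in 44.4% and 79.7% in tumor 2, and Itih5 in 30.8% and 49.1% and in 16.7% and 40.7%. For Dpt the shares were close, 23.1% and 29.1% in tumor 1 and 22.2% and 30.5% in tumor 2, so its difference lay in the reads per cell. Tnxb, a large matrix glycoprotein, had 0 reads in both positive libraries and 814 and 1501 reads in the negative ones, at least 151-fold and 159-fold lower against a floor of 3 reads per library. The Wnt inhibitor Sfrp4 was likewise at 0 against 717 and 932 reads (at least 133- and 98.7-fold lower), and Wif1 at 0 against 2103 and 30 reads (at least 390- and 3.18-fold). The Wif1 reads of the negative library of tumor 1 came from 3 cells, and 1 of them held 91.7% (12.6 CPM without it). The complement gene C4b had 16 and 3 reads in the positive libraries and 1154 and 1145 in the negative ones, and its reads cannot be told fully from those of its near-identical copy C4a. Krt5 and Krt14, keratins of basal epithelium, had 1 and 0 reads in the positive libraries, and the reads in the negative libraries came from 6 and 4 cells for Krt5 and from 3 and 3 cells for Krt14. In each negative library 1 cell held most of them, 79.6% and 83.1% for Krt5 and 93.6% and 75.5% for Krt14.

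Dpt, Cd34 and Col15a1 belong to a set of universal fibroblast genes, which mark resting fibroblasts of many tissues. All 17 genes of the set were tested, the median log2 fold change was -1.71 against -0.04 over all genes tested, and 9 were at least 2-fold lower in each tumor. DESeq2 called 8 of the 17 lower and 0 higher, and edgeR called 0. Over all genes tested, 4.55% were at least 2-fold lower in each tumor and DESeq2 called 0.745% lower. The medians within tumors were -1.68 and -1.66, also with the genes that had 0 reads in a library set to their bound. The most abundant members were not uniform. Ly6a, which encodes the surface antigen Sca-1, stood at 824 against 318 CPM in tumor 1 and at 292 against 695 CPM in tumor 2, and gelsolin (Gsn) at 952 against 1263 and 568 against 1051 CPM. Ly6c1, of the same gene family and so open to shared reads, stood at 22.2 against 117 and 62.4 against 199 CPM, and Pi16, a peptidase inhibitor, at 189 against 376 and 187 against 289 CPM. Pdgfra, the receptor that marks fibroblasts in general, went the other way in value, at 958 against 656 and 626 against 480 CPM (0.46 ± 0.17).

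Many of the reads behind these differences came from a few negative cells. After thinning, a positive cell had reads of 4 to 10 universal fibroblast genes in tumor 1 (median 7) and of 1 to 11 in tumor 2 (median 6), and a negative cell of 2 to 17 (median 8) and 0 to 16 (median 7). At least 14 of the 17 genes were read in 3 of 55 negative cells of tumor 1, 3 of 59 of tumor 2 and 0 of 26 and 0 of 18 positive cells. Those negative cells held 4.39% and 5.51% of the reads of their libraries but 63.2% and 67.9% of the Dpt reads, 50.9% and 66.5% of the Cd34 reads, 76.0% and 98.0% of the Tnxb reads and 92.1% and 97.6% of the Sfrp4 reads. They held 18.1% and 17.4% of the Itih5 reads and 2.04% and 0.102% of the Col15a1 reads. Without them, a setting applied after these cells had been seen, the list's median was -0.57, 5 of the 9 members (Dpt, Cd34, Col15a1, Scara5 and Sema3c) were at least 2-fold lower in each tumor, and the log2 fold change was -1.68 for Dpt, -1.99 for Cd34, -2.40 for Itih5 and -1.78 for Col15a1. With negative cells matched in number and depth, the list's median was -1.20 and 3 members were at least 2-fold lower in each tumor.

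**Figure D3:**
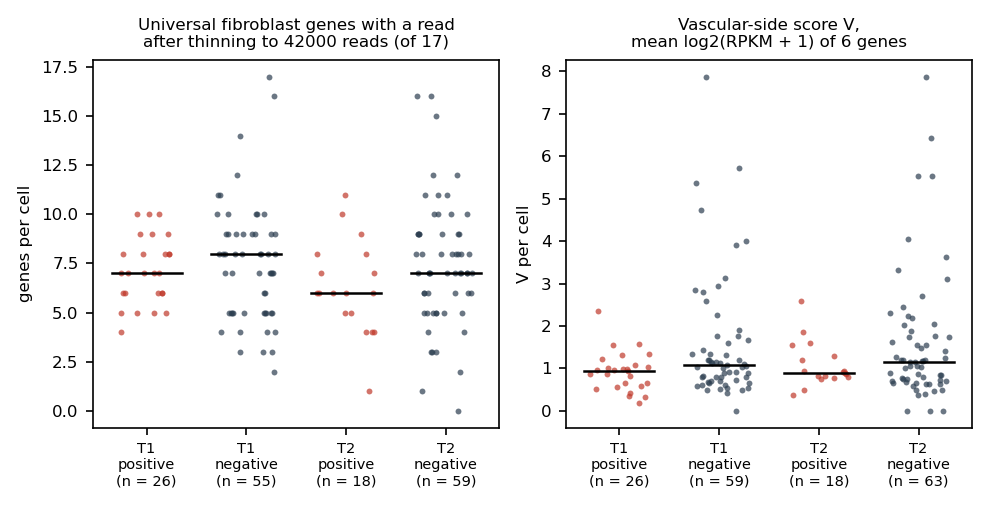
Left, universal fibroblast genes (of 17) with a read per cell after thinning to 42000 reads, and right, the vascular score V (mean log2(RPKM + 1) of 6 genes), for Mmp13-positive and Mmp13-negative cells of tumor 1 (T1) and tumor 2 (T2). Each point is 1 cell and the bar is the median. The medians are close, while cells with at least 14 genes, and V values above 2.58, are found among the negative cells alone.

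The other metalloproteinases that were tested had reads in both classes. Mmp15, under the limit on mean RPKM, had 0 reads in the positive libraries and 74 and 45 in the negative ones. Of 22 family members besides Mmp13, 11 were tested, with a median log2 fold change of 0.37. Mmp14, the membrane enzyme that activates proMMP13, was read in every cell of both classes and stood at 2641 against 1889.8 CPM in tumor 1 and at 2671 against 1604 CPM in tumor 2 (0.61 ± 0.18, edgeR adjusted p above 0.05). Mmp2, the gelatinase that acts in the same chain, stood at 3776 against 3410.3 and 4046 against 2699.9 CPM (0.37 ± 0.20). Mmp11 stood at 683 against 532 and 648 against 592 CPM, and Mmp23 at 166 against 213 and 115 against 173 CPM. Per length, the mean RPKM of Mmp2 in positive cells was 1159 and 1170.2, close to the mean of Mmp13 itself, 1094 and 1555, but Mmp2 was as even over cells (median 981 and 869) as Mmp13 was uneven (median 399 and 452).

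The stromelysins Mmp3 and Mmp10, which lie beside Mmp13 on chromosome 9, were carried by few cells. Mmp3 stood at 973 against 1019 CPM in tumor 1 and at 4756 against 285 CPM in tumor 2, where 1 positive cell held 85.4% of the reads and the class stood at 763 CPM without it. In tumor 1 another positive cell held 79.0% of the Mmp3 reads, and the class stood at 212 CPM without it. At least 5 Mmp3 reads were found in 34.6% of positive cells (9 of 26, 17.2 to 55.7) and 25.4% of negative cells (15 of 59, 15.0 to 38.4) of tumor 1, and in 44.4% (8 of 18, 21.5 to 69.2) and 11.1% (7 of 63, 4.59 to 21.6) of tumor 2. The intervals cover counting error over cells and do not test the classes, since the tumor is the replicate. Mmp10 stood at 104 against 51.3 CPM and at 1538 against 52.5 CPM, with at least 5 reads in 4 of 26 and 3 of 18 positive cells and in 1 of 59 and 2 of 63 negative cells. In the negative library of tumor 1, all Mmp10 reads came from 1 cell. It was the family member at least 2-fold higher in each tumor, but not without the cell of tumor 2 with most of its reads, when the class stood at 84.2 CPM, and Mmp27 (1.52 against 4.67 and 0 against 10.0 CPM) the one at least 2-fold lower. Mmp9, a gelatinase, stood at 17.9 against 28.2 and 39.4 against 9.21 CPM. The other tested members had no common direction, with Mmp16 at 61.5 against 33.6 and 37.6 against 37.4 CPM, Mmp17 at 25.7 against 21.2 and 10.6 against 18.1 CPM and Mmp19 at 36.6 against 63 and 84.1 against 43.3 CPM.

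**Figure D4:**
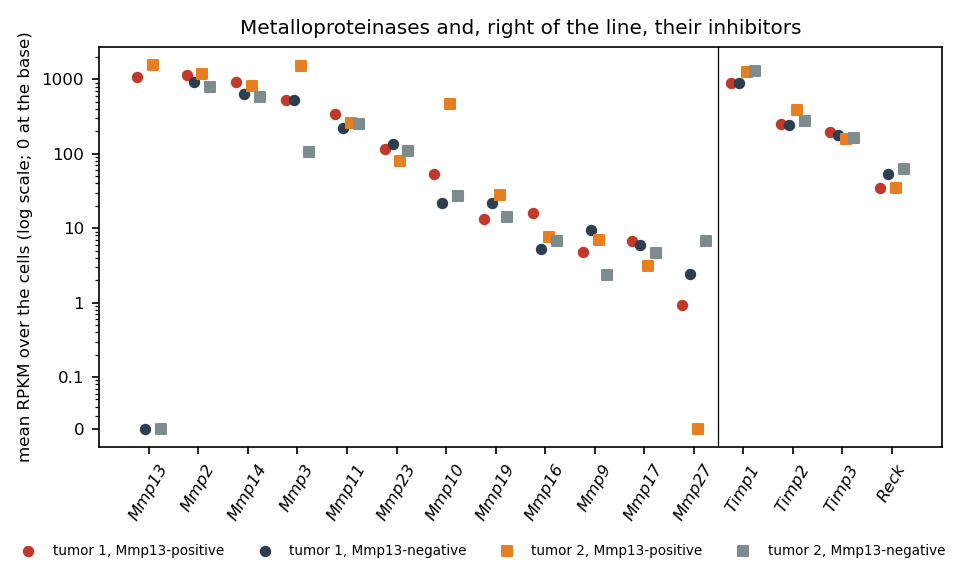
Mean RPKM over the cells of each class and tumor (log scale, 0 drawn at the base) for Mmp13, the tested metalloproteinases and, right of the line, the inhibitors. Each point is 1 class in 1 tumor. Mmp13 is at 1094 and 1555 in positive cells and at 0 in negative cells by the rule, while the points of Mmp2, Mmp14, Timp1 and Timp2 lie close together in both classes.

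The inhibitors varied less. Of 6 genes, 4 were tested, with a median of -0.10 and 0 at least 2-fold different in each tumor. Timp1 stood at 758 against 890 CPM in tumor 1 and at 1265 against 1069.5 CPM in tumor 2 (0.01 ± 0.20), Timp2 at 1007 against 980 and 1360.2 against 1109.5 CPM, and Timp3 at 916 against 1034 and 827 against 974 CPM. Reck, a membrane-anchored inhibitor of several metalloproteinases, stood at 166 against 281 and 148 against 263 CPM (-0.80 ± 0.19). Of the activators and clearance receptors, 11 of 12 were tested, with a median of 0.23 and 0 at least 2-fold different in each tumor. The clearance receptor Lrp1 stood at 1169 against 1572 and 1797 against 1872 CPM, urokinase (Plau) at 286 against 224 and 121 against 131 CPM, and cathepsin K (Ctsk), another collagenase, at 1495 against 1508 and 1618 against 1388 CPM. Plg, which encodes plasminogen, had 0 reads.

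The fibrillar collagens, the substrates of the enzyme, had close levels in both classes. Of 19 fibril-forming and fibril-associated collagens, 18 were tested, with a median of -0.07 (0.28 with the ERCC totals) and 0 at least 2-fold different in each tumor. Col1a1 stood at 17996 against 15692 CPM in tumor 1 and at 11070.5 against 11305 CPM in tumor 2 (0.08 ± 0.18), Col1a2 at 15556 against 14991 and 11178 against 12644 CPM, and Col3a1 at 18658 against 22249.7 and 16194 against 16942 CPM. Col6a1 stood at 7201 against 7308 and 6658 against 5678 CPM. Col12a1, a fibril-associated collagen, was the member that DESeq2 called, and is named here after its values were seen, at 9105 against 5994 and 8533 against 5468 CPM (0.62 ± 0.17). The enzymes of collagen processing and cross-linking (19 of 21 tested) had a median of -0.09 and the collagen receptors (6 of 8) of -0.16, with 0 at least 2-fold different in each tumor in either list. Pcolce, which speeds procollagen cleavage, stood at 1302 against 1424 and 1043 against 1167 CPM, and lysyl oxidase (Lox) at 785 against 1147 and 1201 against 1167 CPM.

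The small leucine-rich proteoglycans and fibulins, which bind and space collagen and elastic fibers, had a median below 0 under the main scaling, though not with the ERCC totals. All 21 were tested, with a median of -0.31 (0.05 with the ERCC totals), 4 at least 2-fold lower in each tumor and 6 called lower by DESeq2. The shares over all genes tested were 4.55% and 0.745%. Among the abundant members, biglycan (Bgn) stood at 11521 against 13381 and 12113 against 12551 CPM, fibrillin 1 (Fbn1) at 2877 against 3124 and 2864 against 3799 CPM and Fbln2 at 2169.8 against 1527 and 3027 against 2243 CPM (0.47 ± 0.17). The 4 that were at least 2-fold lower in each tumor were less abundant, and they are named here after their values were seen. Fibromodulin (Fmod) stood at 9.40 against 152 and 26.3 against 141 CPM, Prelp at 100.1 against 221 and 59.3 against 401 CPM, Efemp1 at 44.7 against 120 and 13.7 against 270 CPM, and Chad at 2.54 against 30.9 and 4.87 against 29.9 CPM, the last from 1 positive cell in each tumor. Without the 6 negative cells rich in universal fibroblast genes, 2 of these 4, Fmod and Chad, were at least 2-fold lower in each tumor.

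**Figure D5:**
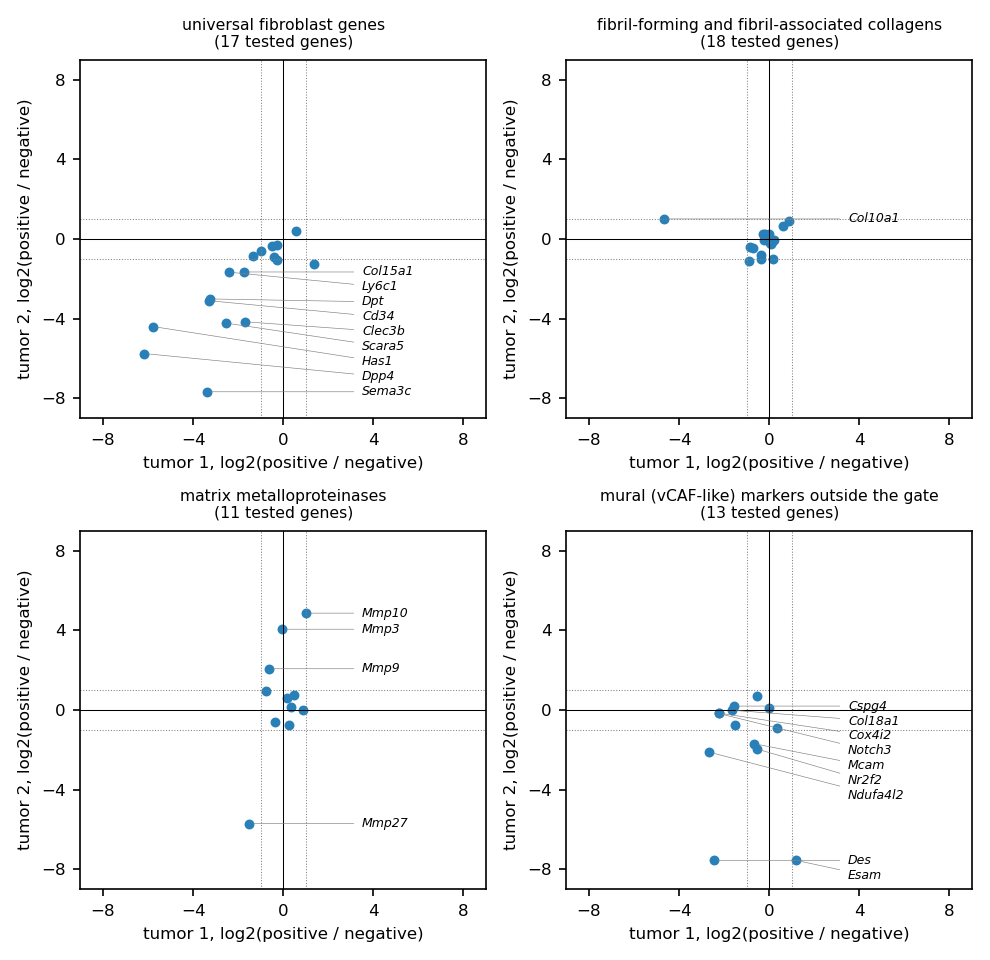
Log2 ratio of Mmp13-positive to Mmp13-negative cells in tumor 1 (x axis) against tumor 2 (y axis) for the tested genes of 4 lists, with dotted lines at 2-fold. Each point is 1 gene. Of 17 universal fibroblast genes 9 lie beyond 2-fold lower in both tumors, of 18 collagens 0, of 11 metalloproteinases Mmp27 alone, and of 13 mural markers 2.

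The factors known to drive the Mmp13 promoter were expressed in both classes. Of 22 AP-1 and immediate early genes, 21 were tested, with a median of 0.28 (0.10 and 0.18 within the tumors) and 0 at least 2-fold higher in each tumor. Fos stood at 3555 against 3135 CPM in tumor 1 and at 2646 against 2429 CPM in tumor 2, Jun at 931 against 682 and 786 against 451 CPM (0.62 ± 0.19), and Junb at 781 against 594 and 556 against 397 CPM (0.44 ± 0.17). Fosl1 was not tested, with at most 0.632 CPM in any library. Klf2, a factor that restrains inflammatory genes, was the member at least 2-fold lower in each tumor, at 38.4 against 90.3 and 58.8 against 153 CPM (-1.31 ± 0.25). Such genes are also known to respond to tissue dissociation, and the list of dissociation and heat shock genes, 14 of 14 tested, had a median of 0.08 with 0 at least 2-fold different in each tumor.

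Of 19 transcription factors linked to the promoter, 18 were tested, with a median of -0.01 (-0.21 and 0.07 within the tumors), 1 (Runx3) at least 2-fold higher and 1 (Sox9) at least 2-fold lower in each tumor. Runx1 stood at 361 against 253 and 373 against 361 CPM, its partner Cbfb at 207 against 125 and 207 against 155 CPM (0.57 ± 0.21), Cebpb at 124 against 117 and 123 against 85.0 CPM and Cebpd at 184 against 163 and 102 against 102 CPM. Runx2, the factor of cartilage and bone, is named after its values were seen and stood at 101 against 94.6 and 175 against 122 CPM. Sp7 had 0 reads. The genes of hypertrophic cartilage and bone, where Mmp13 is best known, mostly fell under the limit on mean RPKM, with 7 of 18 tested and 5 at 0 in all cells compared. Their median was -0.12 (-0.07 and 1.01 within the tumors), 2 tested members, Chad and Dmp1, were at least 2-fold lower in each tumor, and DESeq2 called Chad lower. Dmp1 stood at 3.18 against 22.7 and 1.77 against 12.6 CPM. Osteopontin (Spp1) was the abundant one, at 5435 against 5713 CPM in tumor 1 and at 23325 against 2572 CPM in tumor 2, and so did not differ in the same way in the tumors.

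Insulin-like growth factor genes split by member. All 10 were tested, with a median of -0.38 (-0.47 and 0.04 within the tumors) and 0 at least 2-fold different in each tumor. The binding protein Igfbp3 stood at 1272 against 668 CPM in tumor 1 and at 765 against 398 CPM in tumor 2 (0.94 ± 0.17), and Igfbp4 at 3371 against 2366 and 3577 against 1688 CPM (0.80 ± 0.22). Igfbp2 stood at 648 against 1245 and 414 against 892 CPM (-1.02 ± 0.17), and Igfbp7 at 2238 against 4159 and 2752 against 4326 CPM (-0.77 ± 0.18). DESeq2 called these 4, in those directions, and the positive libraries did not overlap the negative ones for Igfbp3, Igfbp4, Igfbp2 and Igfbp7, as they did not for 15.2% of all genes tested in the higher and 18.4% in the lower direction. The growth factor Igf1 stood at 344 against 221 and 728 against 455 CPM (0.66 ± 0.17). After thinning, Igfbp3 was found in 88.5% of positive and 60% of negative cells of tumor 1 and in 88.9% and 50.8% in tumor 2.

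Cytokines and chemokines held members in both directions. Of 27 genes, 20 were tested, with a median of -0.22 (-0.09 and -0.75 within the tumors, the latter -0.65 with genes at 0 at their bound), 2 at least 2-fold higher in each tumor (Ccl8 and Cxcl5) and 3 lower (Ccl2, Cx3cl1 and Tslp). Over all genes tested, these shares were 1.53% and 4.55%. The neutrophil attractant Cxcl5 stood at 132 against 12.2 and 43.1 against 11.2 CPM, with reads in 4 positive cells of each tumor. The monocyte attractant Ccl2 stood at 24.9 against 128 and 4.87 against 76.6 CPM (-3.10 ± 0.51), and Cx3cl1 at 37.1 against 122 and 47.1 against 122 CPM (-1.55 ± 0.26). These genes were named after their values were seen, and DESeq2 called Ccl8, Cxcl5, Ccl2 and Cx3cl1. Cxcl14, the most abundant, stood at 697 against 932 and 1154 against 520 CPM, Il33 at 363 against 573 and 475 against 410 CPM, Ccl11 at 172 against 248 and 341 against 198 CPM and Il34 at 258 against 423 and 165 against 258 CPM. Il6 and Il11, inducers of stromal responses in tumors, stood at 82.4 against 37.4 and 1.33 against 2.53 CPM and at 3.43 against 3.25 and 3.76 against 5.90 CPM. The interleukin-1 and TNF genes (17 of 18 tested) had a median of -0.03 (-0.26 and -0.20 within the tumors), the TGF-beta ligands and targets (15 of 16) of -0.13 (-0.13 and 0.19) and the Wnt genes (17 of 21) of 0.01 (-0.47 and 0.07). In the TGF-beta list 2 genes, the latent TGF-beta binding proteins Ltbp2 and Ltbp4, were at least 2-fold lower in each tumor and called lower by DESeq2, and in the Wnt list 3, Sfrp4, Wif1 and Dkk2, were at least 2-fold lower, with 0 higher in either list. Ltbp4 stood at 156 against 335 and 76.8 against 322 CPM, and Ltbp2, named after its values were seen, at 4.83 against 79.4 and 50.2 against 304 CPM. Tgfbr2 stood at 1468 against 1142 and 917 against 973 CPM, Pmepa1, a TGF-beta target, at 399 against 374 and 885 against 655 CPM, and the Wnt modulator Sfrp2 at 1251 against 404 and 175 against 539 CPM, in opposite directions in the 2 tumors.

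Complement genes (10 of 12 tested, median -0.60) held 3 members at least 2-fold lower in each tumor, C4b, C3 and Cfb, but the list's medians within the tumors were -0.32 and 0.07. Over all genes tested, 4.55% were at least 2-fold lower in each tumor. C3, the central component, is named after its values were seen and stood at 0.254 against 181 CPM in tumor 1 (2 reads in the positive library) and at 6.86 against 260 CPM in tumor 2, and the 3 rich negative cells of each tumor held 92.8% and 44.8% of the reads in the negative libraries. The most abundant member, the C1 inhibitor Serping1, stood at 1986 against 2778 and 2204 against 1738 CPM. Without the 6 rich cells the list's median was -0.01 and these 3 members were still at least 2-fold lower in each tumor.

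Markers of activated tumor stroma were high in both classes. Of 20 genes, 19 were tested, with a median of 0.37 (0.07 and 0.21 within the tumors, and 0.19 over both without the tumor 2 cell rich in Ankrd1), and DESeq2 called 3 higher and 2 lower. Over all genes tested it called 0.281% higher and 0.745% lower. Sparc stood at 14372 against 18546 and 14376 against 17131 CPM, periostin (Postn) at 9246 against 11489 and 10498 against 10209 CPM, Ctgf at 1608 against 652 and 3166 against 2954 CPM and Spon1 at 5257 against 5015 and 4879 against 3924 CPM. The third gene called higher beside Thbs1 and Tnc was thrombospondin 2 (Thbs2), named after its values were seen, at 3649 against 1471 and 2306 against 1352 CPM (1.04 ± 0.21). Its reads were spread over 25 of 26 and 18 of 18 positive cells. The 2 called lower, also named after their values were seen, were asporin (Aspn), at 375 against 596 and 171 against 471 CPM, and Spon2, at 0.127 against 33.7 and 6.86 against 64.7 CPM with reads in 1 positive cell of each tumor. Contractile genes (14 of 16 tested, median 0.08) showed no common direction, with Acta2, which encodes smooth muscle actin, at 1292 against 882 and 1065 against 1659 CPM. Hypoxia and glycolysis genes (20 of 20 tested) had a median of 0.25 (0.01 and 0.30 within the tumors) and held 0 members at least 2-fold higher in each tumor. That median was -0.30 without the tumor 2 cell rich in Ankrd1 and also -0.30 with matched negative cells. It was 0.45 after thinning, 0.59 with the ERCC totals and 0.59 among cells with V under 2 and under 0.05% epithelial reads. Interferon genes (17 of 20) had a median of 0.11 (0.62 and -0.14 within the tumors) and held 1 such member, Ifit2. The 21 cell cycle genes went apart by tumor, with medians of 1.48 in tumor 1 and -1.65 in tumor 2 (-0.39 with genes at 0 set to their bound), and Mki67 stood at 75.7 against 1.63 and 0 against 38.0 CPM. These genes took at most 0.614% of a positive and 0.140% of a negative cell's reads in tumor 1, and 0.0582% and 1.26% in tumor 2. The median cell of any class held at most 0.00954%, so few cells carried the reads.

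Markers of immune cells and endothelium took small shares of the reads, while some negative cells carried vascular or epithelial reads, as given above. Of 18 immune markers 8 were tested, and Ptprc, Itgam, Cd3e and Cd79a had 0 reads in all cells compared. The 8 had a median of -5.32 (-2.27 and -1.52 within the tumors with genes at 0 set to their bound), and 4 were at least 2-fold lower in each tumor. A library with 0 reads was met for 4 of the 8 in tumor 1 and for 6 in tumor 2. Such genes can pass the limit on mean RPKM through 1 class alone, so these values are a description. Immune markers took at most 0.0107% and 0.0163% of a positive cell's reads and at most 0.128% and 0.0221% of a negative cell's. Cdh5 and Tie1, which define endothelium, were also at 0, and the 4 of 12 endothelial markers that were tested had a median of -1.34, with 1 at least 2-fold lower in each tumor. Endothelial markers took at most 0.0374% and 0.0421% of a positive cell's reads and 0.0434% and 0.293% of a negative cell's. Epithelial markers (13 of 21 tested, median -1.61) took 0 to 0.00644% of a positive cell's reads in tumor 1 and 0 to 0.0956% in tumor 2, against 0 to 1.35% and 0 to 0.256% of a negative cell's, with 5 at least 2-fold lower and 1, Cldn3, at least 2-fold higher in each tumor. Epcam itself, whose protein was a sort marker, had reads in 4 of 26 and 5 of 18 positive cells and in 4 of 59 and 7 of 63 negative cells. Csn3, a milk casein, stood at 4.32 against 30.9 and 62.8 against 88.8 CPM.

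Mural markers outside the gate (13 of 14 tested) had a median of -1.18, with 2 at least 2-fold lower in each tumor, Des and Ndufa4l2. Pdgfrb, carried by pericytes and fibroblasts alike, stood at 1105 against 1112 and 1002 against 941 CPM, Mcam at 139 against 221 and 72.1 against 234 CPM, and Heyl, a Notch target, at 135 against 381 and 186 against 318 CPM. Among cells with V under 2 and under 0.05% epithelial reads the median of this list was -0.80, with 0 members at least 2-fold lower in each tumor, and that of the universal fibroblast genes was -1.41 with 7 members. The dCAF-like markers, genes that the study ties to developmental CAFs (9 of 12, median -0.79), had medians of -2.32 and 0.01 within the tumors (1.14 in tumor 2 with genes at 0 at their bound) and 2 members, Mia and Sox9, at least 2-fold lower in each tumor, and the adipocyte lineage markers (4 of 11, 0.55) had medians of 0.03 and 0.93 and 1 such member, Fabp4. Adipoq, Plin1, Plin4, Retn and Cfd had 0 reads. The part of these other markers in the gene differences was not tested beyond the values given.

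The 20 cells with 1 to 4 Mmp13 reads, which entered no test, did not fall on one side. Summed within tumors, they held Dpt at 373 and 20.5 CPM, Cd34 at 451 and 115 CPM, Col15a1 at 568 and 191 CPM and Tnc at 349 and 4152 CPM in tumors 1 and 2. In tumor 1 these values lay on the side of the negative library for all 4 genes. In tumor 2 Dpt lay below both classes, Tnc lay above both, and Cd34 and Col15a1 lay between them. At least 14 universal fibroblast genes were read in 1 of the 11 cells of tumor 1 and in 0 of the 9 of tumor 2.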

How the data were processed

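Single fibroblasts of 2 mammary tumors were sequenced by Smart-seq2 with single-end reads of 43 bases. The authors used STAR for alignment to mm10, took gene models from RefSeq, added 92 ERCC spike-ins, and deposited 2 tables of 768 wells, raw counts and RPKM made by the authors with rpkmforgenes. Doublets were gated out at the sort, and no doublet caller was run here. Cells were scored and classed as described above. Counts were summed per class and tumor and tested with edgeR 4.0.16 (R 4.3.3) by quasi-likelihood with TMM scaling and the tumor as a block, over genes whose RPKM averaged 1 or more, with Benjamini-Hochberg adjustment. DESeq2 1.42.0 was the other tool. Mmp13 and the 12 genes of the scores were left out of all counts of genes. The code was tested on simulated data, and the calls of both tools on them are given above.

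The tumor pairs the libraries, since both classes came from the same animal. Over 11421 genes, the difference between tumors in the positive libraries correlated with that in the negative libraries at r = 0.06.

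Named genes are those past an adjusted p of 0.05 or, as none passed, the 10 per direction of lowest unadjusted p with 1 sign in both tumors, the tested metalloproteinases, inhibitors, activators and AP-1 genes, and up to 4 members of highest mean RPKM from each other list. Other genes named singly (such as Il6, Il11, Mki67, Des and genes at 0) were picked after their values were seen. The members and the 31 gene lists were chosen with earlier results of these data known. Of 484 list genes, 481 were found in the tables. The promoter and positions are from RefSeq, GRCm38.p6, the assembly of mm10. Some members of the lists are not reported here.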

Additional observations from a re-analysis of the deposited data

Results flagged for a closer look

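Outside the mCAF-like gate, 4 wells of tumor 2 held at least 5 Mmp13 reads, beside 0 in tumor 1, which is a signal in cells that the comparison did not use. They had 5, 7, 239 and 318 reads, or 10.3, 38.5, 1301 and 1357 RPKM. Their matrix scores M were 0.740, 4.46, 3.01 and 1.78 and their vascular scores V 10.5, 9.88, 2.68 and 6.43 in the same order. The well with 239 reads therefore had M above V but below the limit of 4, and the other wells had V above M. Their depths were 157213, 69302, 46331 and 74746 reads.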

How the results depend on the processing

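edgeR called 0 genes in either direction in the main analysis and under most alternatives. DESeq2 called 32 higher and 85 lower. edgeR called 4 higher and 13 lower with cells thinned to 1 depth, 1 higher and 10 lower with cells scaled to the same total, and 1 lower, C3, with at least 20 Mmp13 reads. Without the replicate block, that is, without the pairing by tumor, it called 0, as with the block. The main count of 174 genes at least 2-fold higher in each tumor became 414 with ERCC totals, 304 without a filter on low genes, 262 with at least 10 reads in 2 libraries and 340 with depth-matched negative cells. The 519 lower became 923 without the filter and 317 with at least 1 Mmp13 read. The cause was not tested, except that dropping the filter adds genes. With 1 tumor left out, 1016 to 1061 genes were higher and 1458 to 1976 lower, with no test because no residual spread was left. The Mmp13-positive share was 38.5% in tumor 1 and 30% in tumor 2 with at least 1 read, and 20% to 27.1% with 1 tumor left out.

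The 20 named genes gave 434 values under alternatives. None reversed, 397 stayed on the same side of the threshold and 37 moved past it. Krt5 and Krt14 could not be fitted in 3 of 19 edgeR alternatives. The limits on V, on epithelial reads, on cells rich in universal fibroblast genes and on the tumor 2 cell with most Ankrd1 reads were chosen after seeing the data. The 2 tumors and the 18 positive cells of tumor 2 limit precision, and genes carried by a few cells are the least certain.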
